A study of Rattus norvegicus with 13 samples.

Results

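Twinkle, the helicase that unwinds mitochondrial DNA, is listed on the array under its older gene name Peo1 (now Twnk), and it was examined together with 7 other nuclear genes that copy, coat or transcribe mitochondrial DNA: Polg, Polg2, Ssbp1, Polrmt, Tfam, Tfb1m and Tfb2m. Every array probe carrying one of these gene names was taken, which gave 9 probes of the 30367 on the array and 8 gene names of 26115. Peo1 has 2 probes and each of the other genes has 1. Peo1 and its companions were chosen because earlier results of these same data showed a lower signal at the brighter Peo1 probe, so that probe is described with no test.

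The samples are left ventricles of male rats, 45 weeks old, with RNA measured in 5 rats overexpressing ADBR3 (the β3-adrenergic receptor, gene Adrb3) and in 4 wild-type (WT) rats. How the receptor was overexpressed, and with which promoter and sequence, is not given in the sources at hand. The 13 one-colour arrays comprise 7 of overexpressing and 6 of WT tissue, because hearts 1 and 2 of each group are repeat labelings of 1 rat and were averaged, and overexpressing heart 4 and WT heart 5 repeat an unnamed array and were left out of the comparison. Rats are named below by group and heart number.

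The 75th percentile of the processed signal lay between 760.4 and 908.7 on the 13 arrays, and the software marked 55.2% to 67.8% of the spots as well above background. Levels are given as log2 of the spot signal minus the log2 75th percentile of the same array, so a level of 0 is a spot as bright as that percentile. The Adrb3 probe was well above background on 1 of 7 arrays of overexpressing rats and on 0 of 6 WT arrays, so it does not check the labels. All 8 markers of ventricular cardiomyocytes were measured, and their differences between groups were between -0.07 and 0.08. The number of rats limits the precision of every comparison.

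Mitochondria keep their own small circular genome in many copies per cell, and every enzyme that replicates or transcribes it is encoded in the nucleus. Twinkle opens the double strand ahead of DNA polymerase gamma, whose catalytic subunit is Polg and whose processivity subunit is Polg2, while the single-stranded DNA-binding protein Ssbp1 coats the opened strand. Transcription is carried out by the RNA polymerase Polrmt, with Tfam, which also packages the genome into nucleoids, and Tfb2m as initiation factors. Tfb1m, a relative of Tfb2m, methylates the small ribosomal RNA of the mitochondrion. The heart is rich in mitochondria, and inherited defects of Twinkle and of polymerase gamma cause loss or deletion of mitochondrial DNA in muscle and other tissues.

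The 2 Peo1 probes are shown first because they gave different results. Both are assigned by the array design to the transcript NM_001107599 and lie on the plus strand of build rn4, probe A_64_P012444 at chr1:250079111-250079170 and probe A_64_P012447 at chr1:250078768-250078827. The first probe begins at base 2968 of that transcript and the other at base 2625. Capitals in the first probe, and in the opening 50 bases of the Bc1 RNA gene (RefSeq build GRCr8, plus strand, chr1:209502897-209502946), mark a run of 26 bases that both hold.
A_64_P012444: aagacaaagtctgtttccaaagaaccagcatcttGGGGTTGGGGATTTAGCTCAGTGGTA
A_64_P012447: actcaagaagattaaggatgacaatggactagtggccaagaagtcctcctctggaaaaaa
Bc1: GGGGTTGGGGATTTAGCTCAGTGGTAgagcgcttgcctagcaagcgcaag

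Bc1 is a small noncoding RNA of rodents, best known from neurons, and it is the source of the ID repeat elements that occur in very many copies in the rat genome and inside many transcripts. The run covers bases 35 to 60 of probe A_64_P012444 and bases 1 to 26 of Bc1. Over the 300 bases around the start of Bc1 (250 before it and these 50), the longest run shared with probe A_64_P012447 is 7 bases.

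At probe A_64_P012444 the Peo1 signal was lower in every overexpressing rat than in every WT rat. The level was 6.82 in overexpressing rat 1, 6.73 in rat 3, 6.76 in rat 5, 6.89 in rat 6 and 6.89 in rat 7, against 7.14 in WT rat 1, 7.17 in rat 3, 7.20 in rat 4 and 7.19 in rat 6. The groups did not overlap, and the WT rats lay within a narrower range than the overexpressing rats. The mean was 6.82 ± 0.0741 (SD, n = 5) in overexpressing rats and 7.18 ± 0.0269 (SD, n = 4) in WT rats. The difference was -0.36 on the log2 scale (SE 0.0512), or 1.28-fold lower in overexpressing rats. Probes were compared when their spots stood well above background in 4 or more of the 9 rats, and of these 17587 probes 2.21% were lower in every overexpressing rat than in every WT rat, and since this contrast led to the choice of the probe nothing is read from that share.

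The 2 left-out repeat arrays lay with their own groups at this probe, but each repeats another array and adds no rat. Overexpressing heart 4 read 6.89 and WT heart 5 read 7.18. The repeat labelings of 1 rat, heart 1 minus heart 2, differed by 0.0913 in the overexpressing group and by -0.072 in the WT group. The difference of overexpressing minus WT arrays was -0.308, -0.306 and -0.332 within the 3 slides that held both groups, and -0.404 and -0.32 within the 2 scan days. These values include the left-out repeat arrays and rest on few arrays. Slide 1 compared WT heart 4 with overexpressing heart 7. On slide 3 the only overexpressing array was heart 1, and on slide 4 the only WT array was the repeat, heart 5. On scan day 1 the only WT array was heart 4. Leaving out any 1 rat kept the difference between -0.379 and -0.338. The probe was chosen for this difference, so these values describe its spread and are no test of it.

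At probe A_64_P012447 the same gene name showed no such difference. The level was -1.34, -1.31, -1.34, -1.36 and -1.32 in overexpressing rats 1, 3, 5, 6 and 7, against -1.38, -1.31, -1.38 and -1.33 in WT rats 1, 3, 4 and 6. The ranges overlapped almost completely. The mean was -1.34 ± 0.0177 (SD, n = 5) in overexpressing rats and -1.35 ± 0.0358 (SD, n = 4) in WT rats, a difference of 0.02 (95% interval -0.08 to 0.11, limma adjusted p = 0.932). The -0.36 of the other Peo1 probe lies outside that interval. That other probe was chosen for its lower signal, so nothing is read from this comparison. The repeat labelings of 1 rat differed at probe A_64_P012447 by 0.173 in the overexpressing group and by 0.128 in the WT group. Each of these is more than the SD between rats of either group.

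The contrast of the 2 probes was also taken within each rat. Subtracting probe A_64_P012447 from probe A_64_P012444 within each rat gave 8.16, 8.04, 8.10, 8.24 and 8.22 in overexpressing rats 1, 3, 5, 6 and 7, against 8.53, 8.48, 8.58 and 8.52 in WT rats 1, 3, 4 and 6. This quantity is a contrast of 2 spots on 1 array, not a ratio of transcript levels. It averaged 8.15 ± 0.0826 (SD, n = 5) in overexpressing rats and 8.53 ± 0.0422 (SD, n = 4) in WT rats and differed by -0.375 between the groups. Since probe A_64_P012447 varied little, this restates the difference of the probe that was chosen for it and adds no separate evidence. After removal of the group means, the 2 probes correlated at r = -0.154 over 9 rats, which share both arrays and scaling, and this is given as a description.

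The spots of the probes also differ in brightness. The processed signal of probe A_64_P012444 was 88600 to 132000 over the 13 arrays, which placed it between rank 106 and rank 205 of 30367 probes, with 0 saturated spots. The signal of probe A_64_P012447 was 279 to 379. Both were well above background on 7 of 7 overexpressing and 6 of 6 WT arrays. Whether the brighter spot read Peo1 transcripts, other RNAs that hold the 26-base run, or both was not tested.

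**Figure D1:**
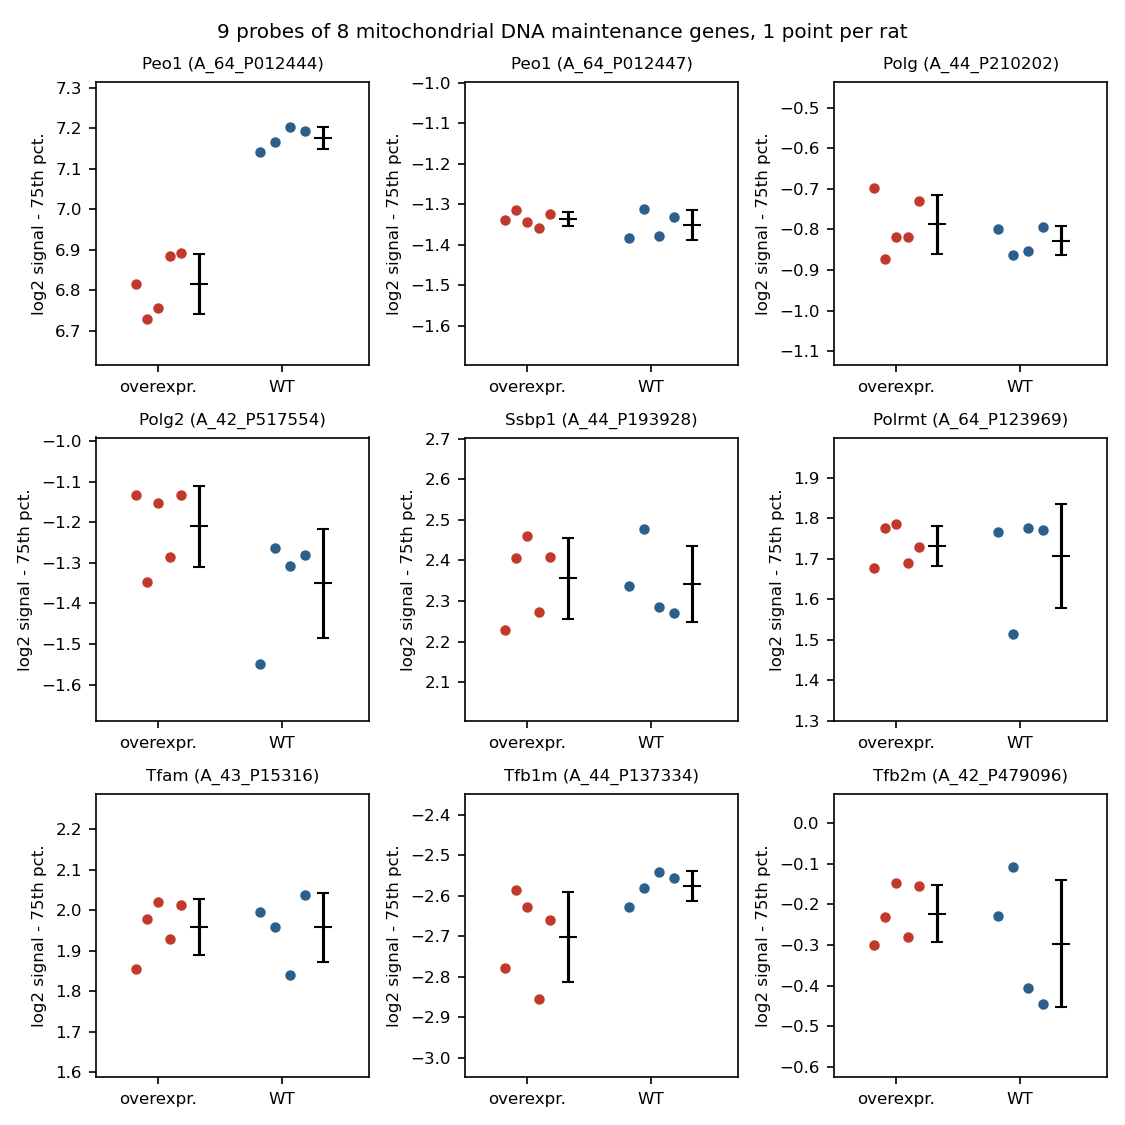
Level of each of the 9 probes in each rat (log2 signal relative to the 75th percentile of its array; every panel spans 0.7 log2 units), overexpressing rats in red on the left and WT rats in blue on the right, with the group mean and SD in black. The groups are apart at Peo1 probe A_64_P012444, where overexpressing rats lie at 6.73 to 6.89 and WT rats at 7.14 to 7.20, and they overlap in the other 8 panels.

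Copies of the repeat were counted in the RefSeq promoter windows of 300 bases (250 before and 50 after each gene's start, build GRCr8). The whole 26-base run GGGGTTGGGGATTTAGCTCAGTGGTA was found in 91 of 33469 windows, or 0.272%, on the gene strand in 40 and on the other strand in 55, with some windows holding it on both. Each probe was then cut into its 45 overlapping pieces of 16 bases, and both strands of the windows were searched. Of the pieces of probe A_64_P012444, 14 occurred in 5 or more promoter windows, and the commonest occurred in 216 (0.645% of all). Of the pieces of probe A_64_P012447, 0 occurred in any window. The other 7 member probes likewise had 0 pieces in 5 or more windows, and 1 piece of the Polrmt probe occurred in 2 windows.

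All 8 genes have a promoter window in the RefSeq table, and 0 of these windows hold a piece of the run. These are counts of letters in short windows, which do not say which RNAs bound to a spot.

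**Figure D2:**
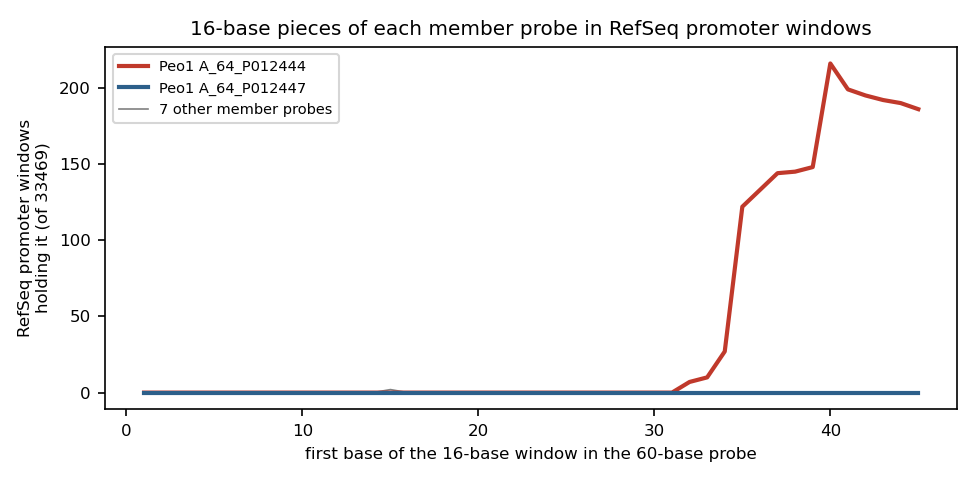
For each 16-base piece of the 9 probes, placed by its first base in the 60-base probe (x axis), the number of RefSeq promoter windows that hold it on either strand (y axis). The line of Peo1 probe A_64_P012444 (red) reaches 216 windows near its 3′ end, while Peo1 probe A_64_P012447 (blue) stays at 0 and the 7 other probes (grey) reach at most 2.

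Other probes that hold part of the start of Bc1 are shown beside it, because they carry the repeat in unrelated genes. They were chosen after the Peo1 values were seen, and no test is given for them. Of all array probes, 7 hold at least 16 consecutive bases of the first 50 of Bc1, none of them named for Bc1 itself. Besides the Peo1 probe, 4 hold them on the same strand and 2 on the opposite strand. Capitals mark the longest run shared with Bc1 in the 4 same-strand probes.
A_64_P088306: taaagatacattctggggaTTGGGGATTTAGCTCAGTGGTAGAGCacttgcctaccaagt
A_64_P133134: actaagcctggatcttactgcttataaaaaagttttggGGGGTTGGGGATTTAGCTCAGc
A_64_P049584: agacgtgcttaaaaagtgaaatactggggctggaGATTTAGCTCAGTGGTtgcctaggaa
A_64_P135207: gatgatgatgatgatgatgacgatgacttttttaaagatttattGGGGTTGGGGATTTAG

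In build rn4 these probes lie at chr11:66424981-66425040 (plus strand, named Stfa2), chr12:6522022-6522081 (plus strand, with no gene name), chr9:47373088-47373147 (minus strand, named Sdpr) and chr14:100902209-100902268 (plus strand, named AY539917). Stfa2 is a stefin, an inhibitor of cysteine proteases. Sdpr, now called Cavin2, encodes a coat protein of caveolae.

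All 4 same-strand probes had lower means in overexpressing rats, and in 3 of the 4 the groups did not overlap. Of all 17587 probes, 2.21% were lower in every overexpressing rat than in every WT rat, and over all 15367 genes 53.3% had lower means. Probes that share a run may not be independent of one another, so nothing is read from these counts. The unnamed probe A_64_P133134, with 21 shared bases, read 2.27, 2.19, 2.23, 2.66 and 2.60 in overexpressing rats 1, 3, 5, 6 and 7, against 2.81, 3.09, 3.56 and 3.63 in WT rats 1, 3, 4 and 6. Its means were 2.39 ± 0.218 (SD, n = 5) in overexpressing rats and 3.27 ± 0.392 (SD, n = 4) in WT rats, a difference of -0.88. This was the largest difference of the 5 same-strand probes, and WT rat 1 lay nearest to the overexpressing rats.

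The Sdpr probe, with 16 shared bases, read 5.27, 5.24, 5.40, 5.51 and 5.49 in overexpressing rats, against 5.65, 5.61, 5.56 and 5.75 in WT rats, in the same order. The overexpressing rats were all below the WT rats, with means of 5.38 ± 0.124 (SD, n = 5) in overexpressing rats and 5.64 ± 0.0809 (SD, n = 4) in WT rats and a difference of -0.26. The AY539917 probe, also with 16 shared bases, averaged -2.67 ± 0.191 in overexpressing rats and -2.24 ± 0.166 in WT rats (SD, n = 5 and n = 4), a difference of -0.43 with no overlap. It is a dim spot, with a processed signal of 111 to 199, and its highest overexpressing rat (-2.52) lay just below its lowest WT rat (-2.48).

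The Stfa2 probe holds 26 consecutive bases of Bc1, though not the same 26 as the Peo1 probe, and its groups overlapped. It averaged 8.72 ± 0.108 in overexpressing rats and 8.89 ± 0.208 in WT rats (SD, n = 5 and n = 4), a difference of -0.17. WT rat 3, at 8.58, lay among the overexpressing rats, which ran between 8.55 and 8.81. Within slide 4 its difference was 0.0504, and that of the AY539917 probe was 0.022, so both were higher in the overexpressing arrays there. The only WT array of slide 4 was the repeat, heart 5. Over 18 alternatives, the difference of the unnamed probe was between -1.29 and -0.688 and that of the Sdpr probe between -0.338 and -0.0674. The smallest Sdpr difference was that within slide 1, which compared only WT heart 4 with overexpressing heart 7.

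Of the opposite-strand probes, both with 17 shared bases, the Lefty2 probe averaged -3.40 ± 0.21 in overexpressing rats and -3.16 ± 0.265 in WT rats. Its difference was -0.24 with overlapping groups. The Sfrp5 probe was well above background on 2 of 7 overexpressing and 4 of 6 WT arrays and was not compared. With the group means removed, the correlation with Peo1 probe A_64_P012444 over 9 rats was 0.732 for the unnamed probe, 0.647 for Sdpr, 0.511 for Stfa2 and -0.471 for AY539917. For the opposite-strand Lefty2 probe it was 0.528, so a positive correlation was not particular to the same-strand probes. These are descriptions of spots that share arrays and scaling.

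**Figure D3:**
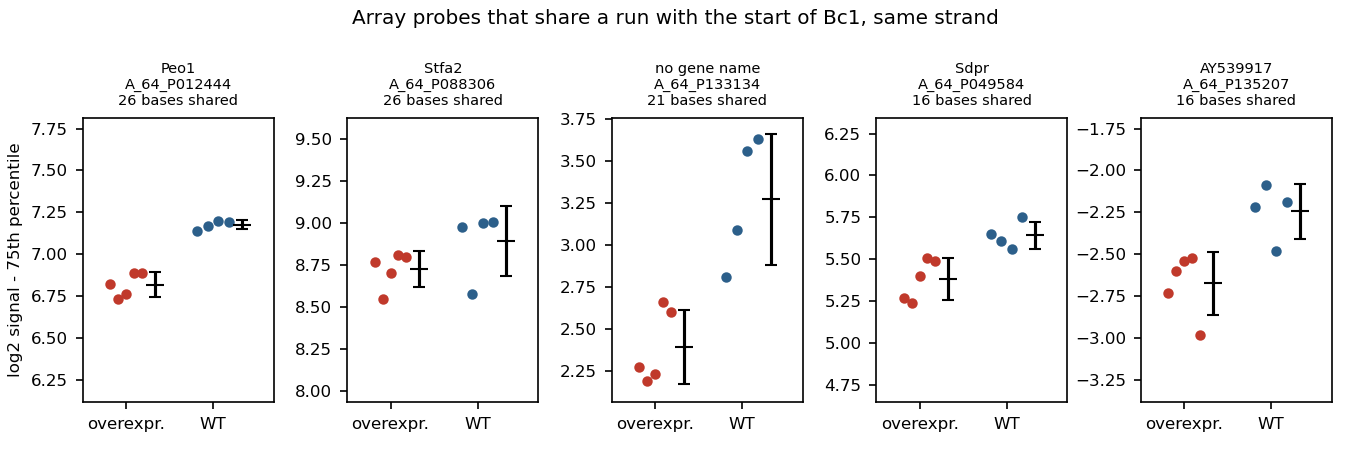
Level in each rat (log2 signal relative to the 75th percentile of its array; every panel spans 1.7 log2 units) of Peo1 probe A_64_P012444 and of the 4 other probes that share at least 16 bases with the start of Bc1 on the same strand, overexpressing rats in red on the left, WT rats in blue on the right, group mean and SD in black. Means are lower in overexpressing rats in all 5 panels, and the groups overlap in the Stfa2 panel.

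Among the other genes of replication, Polg, the catalytic subunit of polymerase gamma, read -0.70, -0.87, -0.82, -0.82 and -0.73 in overexpressing rats 1, 3, 5, 6 and 7, against -0.80, -0.86, -0.85 and -0.80 in WT rats 1, 3, 4 and 6. The WT rats lay inside the range of the overexpressing rats. The means were -0.79 ± 0.0724 (SD, n = 5) in overexpressing rats and -0.83 ± 0.0351 (SD, n = 4) in WT rats, a difference of 0.04 (95% interval -0.08 to 0.16, limma adjusted p = 0.822). It was 0.0177 without overexpressing rat 1 and 0.062 without overexpressing rat 3.

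Polg2, the processivity subunit, read -1.13, -1.35, -1.15, -1.28 and -1.13 in overexpressing rats, against -1.55, -1.26, -1.31 and -1.28 in WT rats. WT rat 1 was the lowest of all 9, and the other WT rats lay among the overexpressing ones. The means were -1.21 ± 0.0994 (SD, n = 5) in overexpressing rats and -1.35 ± 0.134 (SD, n = 4) in WT rats, a difference of 0.14 (95% interval -0.04 to 0.32, limma adjusted p = 0.599). Leaving out 1 rat at a time moved it between 0.0741 and 0.175, with the lowest value when WT rat 1 was left out.

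Ssbp1, which coats single-stranded mitochondrial DNA, read 2.23, 2.41, 2.46, 2.27 and 2.41 in overexpressing rats, against 2.34, 2.48, 2.29 and 2.27 in WT rats. High and low rats occurred in both groups. The means were 2.36 ± 0.0994 (SD, n = 5) in overexpressing rats and 2.34 ± 0.0946 (SD, n = 4) in WT rats, a difference of 0.01 (95% interval -0.14 to 0.17, limma adjusted p = 0.968). Leaving out 1 rat at a time moved it between -0.013 and 0.0584.

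Of the transcription machinery, Polrmt, the RNA polymerase, read 1.68, 1.78, 1.78, 1.69 and 1.73 in overexpressing rats, against 1.76, 1.51, 1.78 and 1.77 in WT rats. WT rat 3 was the lowest, and the other WT rats lay in the upper part of the overexpressing range. The means were 1.73 ± 0.0485 (SD, n = 5) in overexpressing rats and 1.71 ± 0.129 (SD, n = 4) in WT rats, a difference of 0.03 (95% interval -0.12 to 0.17, limma adjusted p = 0.93). Without WT rat 3 the difference was -0.0393, so its sign rests on that rat.

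Tfam, the packaging and initiation factor, had nearly equal means. It read 1.85, 1.98, 2.02, 1.93 and 2.01 in overexpressing rats, against 2.00, 1.96, 1.84 and 2.04 in WT rats, and each group held both high and low rats. The means were 1.96 ± 0.0685 (SD, n = 5) in overexpressing rats and 1.96 ± 0.0852 (SD, n = 4) in WT rats. The difference was 0.00112 with a 95% interval of -0.13 to 0.13 (limma adjusted p = 0.997), and it ran between -0.0384 and 0.0274 with 1 rat left out.

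Tfb1m, the ribosomal RNA methyltransferase, was the single gene besides Peo1 with a lower mean in overexpressing rats. It read -2.78, -2.59, -2.63, -2.86 and -2.66 in overexpressing rats, against -2.63, -2.58, -2.54 and -2.56 in WT rats. Overexpressing rats 1, 6 and 7 lay below every WT rat, while rats 3 and 5 did not. The means were -2.70 ± 0.112 (SD, n = 5) in overexpressing rats and -2.58 ± 0.038 (SD, n = 4) in WT rats, a difference of -0.13 (95% interval -0.27 to 0.02, limma adjusted p = 0.573). Its spots were the dimmest of the 9 probes, at a processed signal of 115 to 160.

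Tfb2m, the initiation factor that opens the promoter, read -0.30, -0.23, -0.15, -0.28 and -0.15 in overexpressing rats, against -0.23, -0.11, -0.41 and -0.44 in WT rats. The WT rats lay on both sides of the overexpressing range. The means were -0.22 ± 0.0705 (SD, n = 5) in overexpressing rats and -0.30 ± 0.157 (SD, n = 4) in WT rats, a difference of 0.07 (95% interval -0.10 to 0.25, limma adjusted p = 0.783). It was 0.0245 without WT rat 6, 0.0378 without WT rat 4 and 0.137 without WT rat 3.

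Taking the 8 probes other than Peo1 probe A_64_P012444 together, 7 had higher and 1 had lower means in overexpressing rats, and their differences ran between -0.13 and 0.14. With limma, 0 of them passed an adjusted p of 0.05, against 1 of all 17587 probes (0.00569%), and 0 reached an unadjusted p of 0.05, against 9.2% of all probes. In 0 of the 8 were the groups apart, against 3.44% of all probes. The median difference over all probes was -0.00939, and the median SD within a group over all probes was 0.135. A p that misses the threshold does not show that the groups were equal, and the 95% intervals of these 8 probes reach from -0.27 to 0.32. In tissue RNA of this kind, fewer cells of a type and less RNA per cell cannot be told apart.

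**Figure D4:**
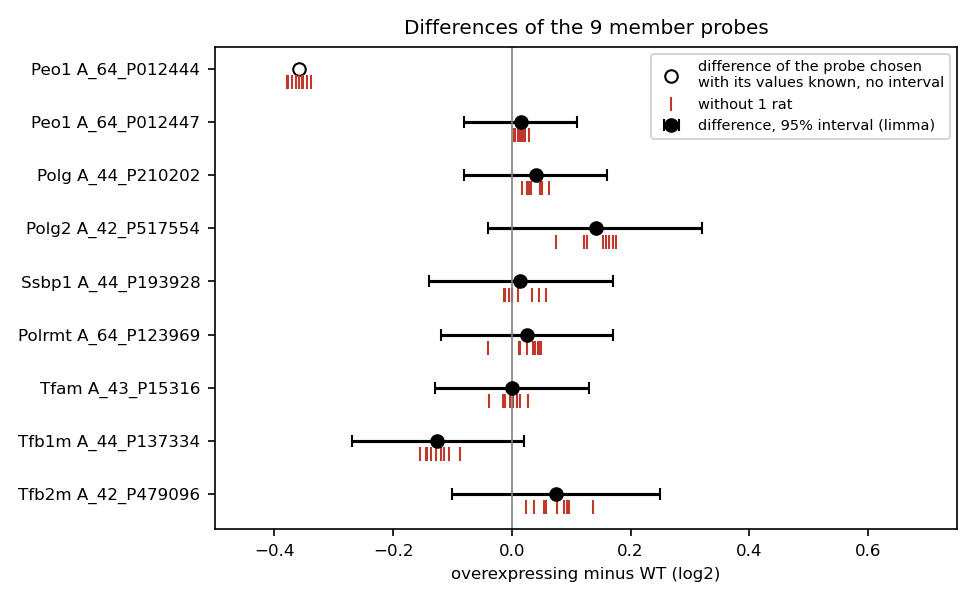
Difference of each probe, overexpressing minus WT (log2, x axis). Filled points carry the 95% interval of the limma fit, the open point is Peo1 probe A_64_P012444 with no interval, and red ticks give the difference with 1 rat left out. The intervals of the 8 filled points all include 0, and the ticks of Peo1 probe A_64_P012444 lie between -0.379 and -0.338.

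Within the groups, the member probes varied together in some pairs and oppositely in others. With the group means removed, the highest correlation between member probes was that of Ssbp1 with Tfb2m, at r = 0.861 over 9 rats, followed by Ssbp1 with Tfb1m at 0.578 and Ssbp1 with Tfam at 0.516. Peo1 probe A_64_P012444 varied most like Polg among the members, at r = 0.455. The lowest correlations were -0.531 for Polrmt with Tfb2m, -0.523 for Peo1 probe A_64_P012444 with Tfb1m and -0.498 for Peo1 probe A_64_P012447 with Polrmt. All these values share arrays and scaling, and they are given as a description.

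Outside the 8 genes, the 5 gene symbols whose probes varied most like Peo1 probe A_64_P012444 over the 9 rats, with group means removed, were Lztfl1 (r = 0.976), Slc35e3 (0.942), Svep1 (0.933), Tbc1d9 (0.931) and Plekha3 (0.927). Their differences between the groups were 0.24, 0.06, 0.30, 0.23 and 0.02, so none had the lower mean in overexpressing rats that the Peo1 probe had. They are the top of a search over the named genes among 17587 probes in only 9 rats, so their correlations are a description. Lztfl1 and Svep1 were dim, with mean levels of -3.84 and -3.91 in overexpressing rats and -4.09 and -4.21 in WT rats.

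The other genes of mitochondrial DNA maintenance were compared through lists chosen by function, each gene by its brightest probe. Of 102 listed genes, 85 were on the array under these names or an older one (matched through RefSeq accessions and synonyms), and 77 passed the filter on dim spots. Of the 77, 44 had lower and 33 had higher means in overexpressing rats, while over all 15367 genes 53.3% had lower means. This split depends on the scaling: with each array scaled to its median, 26 had lower and 51 had higher means. With limma, 0 of the 77 passed an adjusted p of 0.05, against 0.00651% of all genes. An unadjusted p under 0.05 was reached by 3 higher and 0 lower genes, against 3.15% and 6.29% of all genes in those directions. The groups were apart in 4 of the 77, against 3.52% of all genes. None of the 15 transcripts encoded by mitochondrial DNA was found by name among the probes, and they were not analysed here.

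In the replication and repair list 13 of 18 genes were measured, 9 with higher and 4 with lower means and a median difference of 0.077, beside -0.00892 over all genes. Fen1, the flap endonuclease that removes primers, averaged 0.58 ± 0.0911 in overexpressing rats and 0.35 ± 0.0492 in WT rats (SD, n = 5 and n = 4), a difference of 0.24 with an adjusted p of 0.299 by limma. Endog, the mitochondrial endonuclease G and the gene of the list with the highest mean signal, averaged 2.81 ± 0.0567 in overexpressing rats and 2.61 ± 0.0568 in WT rats (SD, n = 5 and n = 4), a difference of 0.20 with a limma adjusted p of 0.306. In both genes every overexpressing rat lay above every WT rat, and neither passed the adjusted threshold.

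The same list held Lig3, the mitochondrial DNA ligase, at a difference of 0.24 with overlapping groups (limma adjusted p = 0.625), and Rnaseh1, which removes RNA from RNA-DNA hybrids, at -0.08 (limma adjusted p = 0.634). The exonuclease Mgme1 and the topoisomerase Top1mt had differences of 0.08 and 0.00.

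Among 17 measured genes of mitochondrial nucleotide supply, 10 had lower and 7 higher means and the median difference was -0.0183. Rrm1, the large subunit of ribonucleotide reductase, averaged -4.25 ± 0.195 in overexpressing rats and -4.79 ± 0.454 in WT rats (SD, n = 5 and n = 4), a difference of 0.54 at a dim spot with overlapping groups (limma adjusted p = 0.466). Suclg1, a subunit of succinyl-CoA ligase and the gene of the list with the highest mean signal, averaged 6.74 ± 0.114 in overexpressing rats and 6.73 ± 0.0687 in WT rats (SD, n = 5 and n = 4). Cmpk2, a mitochondrial nucleotide kinase, had the lowest difference of the list at -0.13 (limma adjusted p = 0.73). The thymidine kinase Tk2 and the deoxyguanosine kinase Dguok, which salvage nucleotides inside the organelle, had differences of 0.07 and 0.01.

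All 22 genes of mitochondrial transcription and RNA processing were measured, 14 with lower and 8 with higher means and a median difference of -0.018. The extremes were Trmt10c, a subunit of mitochondrial RNase P, at -0.16 (limma adjusted p = 0.526) and Elac2, the enzyme that cuts the 3′ ends of transfer RNAs, at 0.11 (limma adjusted p = 0.529). Hsd17b10, also a subunit of RNase P and the gene with the highest mean signal here, averaged 4.18 ± 0.0292 in overexpressing rats and 4.18 ± 0.0447 in WT rats (SD, n = 5 and n = 4). The elongation factor Tefm had a difference of -0.09.

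Of 13 measured nucleoid and inner membrane genes, 7 had higher and 6 lower means, with a median difference of 0.0224. The protease Lonp1, which degrades Tfam, had the highest difference at 0.12 (limma adjusted p = 0.526), and the fusion protein Opa1 the lowest at -0.14 (limma adjusted p = 0.583). The chaperone Hspd1, with the highest mean signal, averaged 4.85 ± 0.0373 in overexpressing rats and 4.89 ± 0.0417 in WT rats (SD, n = 5 and n = 4). Immt, the core of the contact sites of the inner membrane, and the fusion protein Mfn2 were higher in every overexpressing rat than in every WT rat, by 0.09 and 0.08, with limma adjusted p-values of 0.546 and 0.583.

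Of the nuclear regulators of mitochondrial biogenesis 12 of 15 were measured, 10 with lower and 2 with higher means and a median difference of -0.0512. Ppargc1b, a coactivator of nuclear receptors, had the lowest difference at -0.14 (limma adjusted p = 0.69), and the deacetylase Sirt3 the highest at 0.07 (limma adjusted p = 0.771). The nuclear receptor Esrra, with the highest mean signal, averaged 4.09 ± 0.0841 in overexpressing rats and 4.13 ± 0.0581 in WT rats (SD, n = 5 and n = 4). Ppargc1a and Nrf1, which act on the Tfam promoter, had differences of -0.09 and -0.07. With the arrays scaled to their medians instead, the median difference over all genes was 0.0326 and that of the regulators was -0.00968, with 8 lower and 4 higher means, while the transcription list then had 6 lower and 16 higher means and a median of 0.0235. The nucleotide supply list then had 6 lower and 11 higher means and a median of 0.0232.

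**Figure D5:**
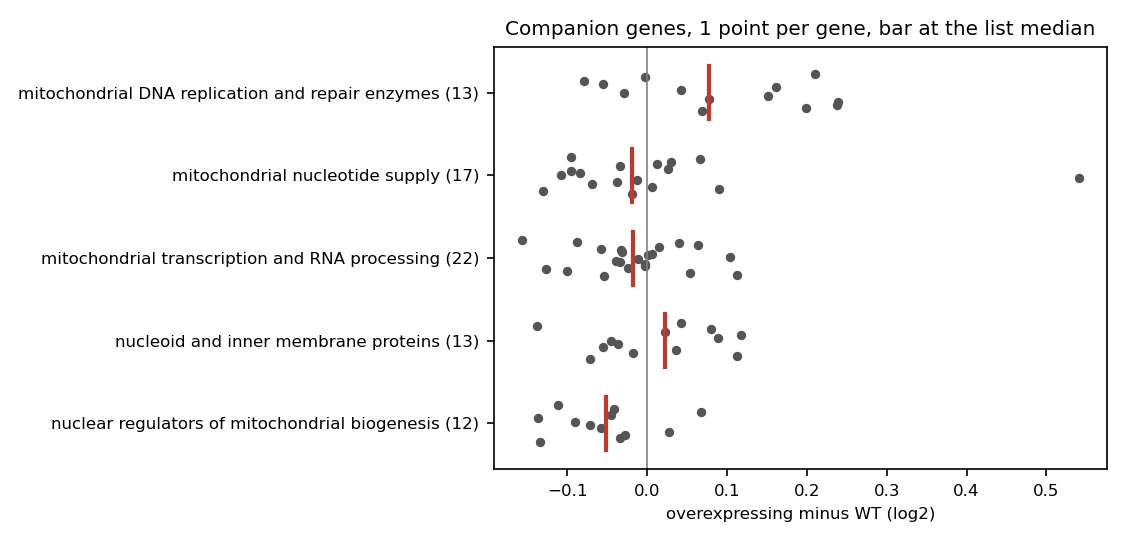
Difference of each measured companion gene, overexpressing minus WT (log2, x axis), by list with the number of measured genes in brackets, and the list median as a red bar. Medians lie between -0.0512 for the regulators and 0.077 for replication and repair, and the point at 0.54 is Rrm1.

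Markers of other cell types were read beside these values. The summed level of the 8 cardiomyocyte markers was 2900 to 3250 in overexpressing rats and 2620 to 3340 in WT rats, in multiples of the 75th percentile of the array. Of the 4 markers listed for lymphocytes 2 were measured, Cd3g at a difference of -0.68 and Ptprc, which is not limited to lymphocytes, at -0.39. Their limma adjusted p was 0.526 and 0.461, and their unadjusted p was 0.0491 and 0.0223. Over all genes, 6.29% had lower means at an unadjusted p under 0.05. The summed level of these 2 markers was 0.373 to 0.597 in overexpressing rats and 0.511 to 0.88 in WT rats, with overlap. The 4 fibroblast markers had differences of 0.02 to 0.26, with summed levels of 35.5 to 41.0 in overexpressing rats and 33.3 to 40.3 in WT rats. Of the 4 atrial markers, Nppa differed by 0.74 and Sln by 0.45 (limma adjusted p = 0.667 and 0.865). Myl4 differed by 0.01 and Myl7 by -0.07 (limma adjusted p = 0.958 and 0.98). The summed levels of the 4 were 209 to 421 in overexpressing rats and 205 to 267 in WT rats. The 4 endothelial markers all had lower means in overexpressing rats, with differences of -0.23 to -0.02 and summed levels of 20.1 to 22 in overexpressing rats and 19.7 to 22.4 in WT rats. Macrophage markers differed by -0.20 to 0.32, smooth muscle and pericyte markers by 0.03 to 0.22, and the measured blood and adipocyte markers by 0.00 to 0.22, and none of the markers passed the adjusted threshold. The part of these cells in the differences of the 8 genes was not tested.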

How the data were processed

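The authors deposited scanner files of spot intensity, read with Agilent Feature Extraction, version 10.7.1.1. The array design is number 028279 and its probes are placed on build rn4, per the file headers. Their processed signal is background-subtracted. The deposited series values are natural log values for 20000 probes, whose scale was found by comparison with the median spot signal of the same arrays (r of 0.9988 to 0.9999), and they were used as an alternative setting. From the deposited intensity, log2 processed signal minus the array's 75th percentile over the 58717 spots that are not controls was computed, and spots of a probe were averaged (2 to 10 spots for the member probes, 34 in all). Spots flagged as outliers by the software were left out of this average where another spot of the probe remained. Where at least 0.5 of its spots were well above background, so was the probe on that array.

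The 5 overexpressing and 4 WT rats were compared in R 4.3.3 with limma 3.58.1 (lmFit, eBayes). The model held only the group, and p-values were adjusted by Benjamini-Hochberg over the 17587 probes (all 15367 genes for the lists) at 0.05. The fit was checked on simulated data. The members and lists were chosen with earlier results of these data known. The text names all 8 members, from each list the gene with the highest mean signal and the largest difference in each direction, and the 5 symbols most like the brighter Peo1 probe; other list genes with a role close to the members', those whose groups were apart and those at an unadjusted p under 0.05 were chosen after their values were seen. Current symbols and Bc1 came from RefSeq tables of GRCr8, and probe sequences and coordinates from the scanner files. In R, files were handled by data.table, 1.17.8; elsewhere by Python 3.11.15 with pandas 2.3.3, numpy 2.4.6 and matplotlib 3.10.9. Alternatives covered scaling, background correction, filters, slide, scan day, the variance model, labelings and left-out rats.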

Additional observations from a re-analysis of the deposited data

Results flagged for a closer look

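Among the 8 genes, 18 groups of rats (9 probes in 2 groups) were examined for a rat far from the rest of its group. Polg2 in WT rat 1 read -1.55, while the nearest other WT rat read -1.31, and this gap is 0.841 of the range of the WT rats. Polrmt in WT rat 3 read 1.51, with the nearest other WT rat at 1.76 and a gap of 0.956 of the range. Both gaps exceed the critical value of Dixon's test for groups of 4. Chance flags about 1 group in 20.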

How the results depend on the processing

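With limma 1 probe of 17587 passed the adjusted threshold of 0.05 and 0 member probes did. The number of probes that passed was 2 with normexp followed by quantile normalization, 0 with slide as a block, and 6 with an intensity trend and robust variances, where the count of member probes was 1. That is Peo1 probe A_64_P012444, which was chosen on these values, so its call is no test and nothing is read from it. Leaving out 1 rat at a time gave 0 to 14, with 14 without overexpressing rat 3, 2 without overexpressing rat 5 or without WT rat 1, and 0 without overexpressing rat 6 or 7 or WT rat 3, 4 or 6, and 0 member probes each time. For rats 1, 3 and 6, whose heart number occurs in both groups, 0 probes passed with the heart number as a block and 0 with no replicate block. The deviations of same-numbered rats correlated at 0.115, 0.0352 and 0.116, so these numbers were not treated as pairs. The cause of these changes was not tested.

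The difference at Peo1 probe A_64_P012444 was between -0.404 and -0.306 under all 29 alternatives. These reuse the same arrays, and the probe was chosen for this difference, so the range is no separate evidence for it. The contrast of the 2 Peo1 probes was -0.27 within slide 4, where the only WT array was the repeat, heart 5. It was -0.375 over the 9 rats, and -0.398 to -0.347 with 1 rat left out. Polg and Polg2 had higher means and Tfb1m a lower mean in overexpressing rats under all 29, while Ssbp1 and Tfam were lower under 11, Polrmt under 7 and Tfb2m under 2, and Peo1 probe A_64_P012447 was lower under 1 of 28. Alternatives that change only the filter, the variance model or the number of probes a gene cannot change the difference of a probe. They are counted here but say nothing about its sign. In the companion lists 0 genes passed under any alternative run. With a shared run of at least 12 bases of Bc1 in place of 16, 5 of 5 other same-strand probes had lower means in overexpressing rats, and with 18 or 20 bases 2 of 2 did; these lengths were chosen after seeing the data. Dim spots, such as those of Tfb1m and Rrm1, limit what small differences can be read.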
